A study of Canis lupus familiaris with 10 samples.

Results

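The regions described here were the broad accessible domains of 2 canine B-cell lymphoma cell lines: stretches of at least 3000 bp in which peaks from different ATAC-seq libraries touched or overlapped, and in which each of the 10 libraries had at least 1 peak. ATAC-seq uses a transposase that cuts and tags DNA left open between nucleosomes, so that a peak marks accessible chromatin. Peaks from the 10 libraries merged into 59420 regions, of which 9179 held a peak in every library, and 1055 of these (11.5% of the shared regions and 1.78% of all merged regions) were 3000 bp or wider. The members were thus chosen by the positions of the peaks alone, so width, covered length and presence in every library are a description of how the members were chosen, and no test was made of them.

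The 17-71 line, collected on day 4, gave 3 control libraries (replicates 1, 2 and 3) and 2 libraries from cells treated with 100 nM C220 (replicates 4 and 6). The CLBL-1 line, collected on day 2, gave 2 control libraries (replicates 2 and 3) and 3 libraries treated with 100 nM C220 (replicates 4, 5 and 6). The agent written PR220 in the labels was taken to be the C220 of the study. C220 is a selective inhibitor of PRMT5, the enzyme that places symmetric dimethyl marks on arginines of histones and of many other proteins. Each line is a single cell line, and line and day of collection cannot be told apart. The study describes its ATAC-seq as done in biological triplicate, but the labels do not tie libraries to separate cultures, and its methods state that outlying samples were dropped after a correlation of read counts. The p-values below therefore measure the spread between the libraries used here, which may be technical.

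Most accessible sites are short: a promoter or enhancer bares a few nucleosomes' worth of DNA. Broad stretches of open chromatin are known at strongly used promoters, at clusters of enhancers around genes that define a cell's identity, and where neighbouring elements lie close together. Repeated or collapsed sequence near centromeres and telomeres can also collect many aligned reads over a long stretch. PRMT5 is known mainly as a writer of repressive histone marks and as a modifier of splicing proteins.

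The domains were mostly just past the limit, and the bases that all libraries agreed on were far fewer than the width. Widths ran from 3000 to 21751 bp with a median of 3627 bp (quartiles 3253 and 4217.5 bp), and 726 domains (68.8%) were narrower than 4000 bp, while 115 reached 5000 bp. Together the domains spanned 4.20 Mb. The stretch covered by a peak in all 10 libraries, called the common core here, had a median of 796 bp, or 21.6% of the domain's width. In the 8124 shared regions under 3 kb (median width 1566.5 bp) the core had a median of 666 bp and filled 46.5% of the width. In 404 domains the core reached 1000 bp and in 32 it reached 3000 bp, whereas 92 domains had no base covered in all 10 libraries.

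**Figure D1:**
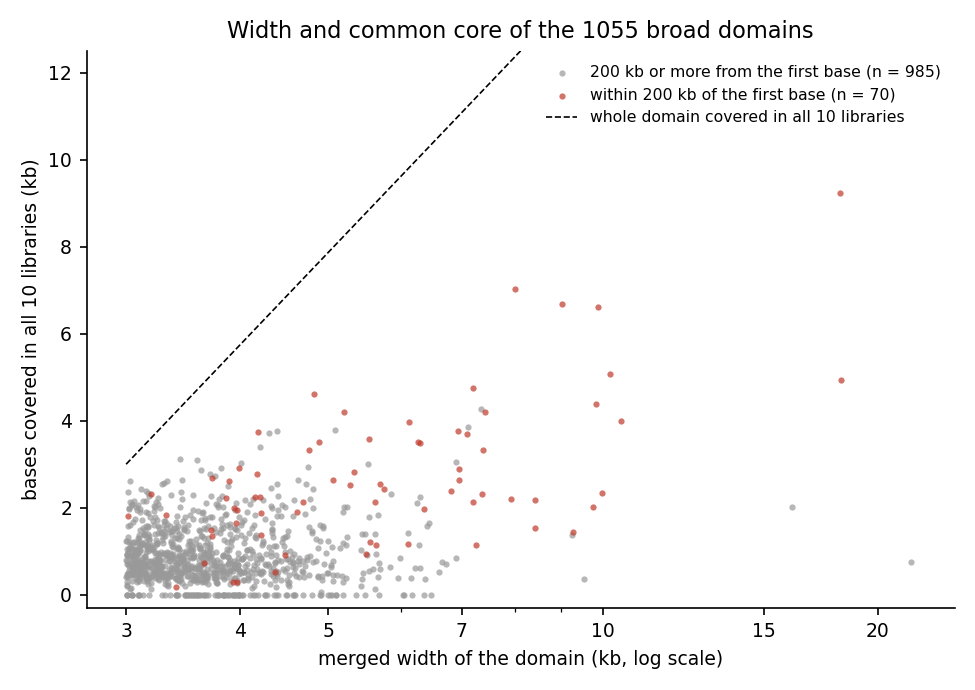
Width of each of the 1055 broad domains (x axis, kb, log scale) against the number of its bases covered by peaks in all 10 libraries (y axis, kb); each point is a domain, red within 200 kb of the first base of its chromosome and grey elsewhere. Most points lie far under the dashed line, and the longest core, 9239 bp, belongs to a red point.

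Breadth also depended on how peaks were joined. In 276 domains no library had a single peak of 3000 bp or more, so the width arose from shorter peaks at shifted positions, and in 37 domains every library had such a peak. Each library had exactly 1 peak in 584 domains (55.4%), against 98.7% of the shared regions under 3 kb. The narrowest members were chr17:39152595-39155594 and chrX:101235609-101238608, both 3000 bp, and chr20:50664359-50667360 of 3002 bp. Just outside lay chr18:46087319-46090317 and chr3:37684336-37687334, both 2999 bp, and chr18:54181427-54184424 of 2998 bp. Their mean fold enrichments, the height of the fragment pileup over the caller's local background, were 4.23, 2.66 and 3.99 inside and 3.04, 3.43 and 4.99 outside (means over the bases covered).

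The widest domains gathered at the beginnings of chromosomes. Dog autosomes are acrocentric, with the centromere close to 1 end. Within 200 kb of the first base of their chromosome lay 70 domains on 16 chromosomes, against 60 of the far more numerous shared regions under 3 kb. These 70 had a median width of 5539.5 bp, against 3583 bp for the other 985, and a median fold enrichment of 2.16, against 3.73. They included 8 of the 10 widest domains and 41 of the 115 domains of 5000 bp or more. The share of shared regions that were domains was highest on chromosome 34 (27 of 119, 22.7%) and chromosome 37 (26 of 121, 21.5%) and lowest on chromosome 19 (3 of 78, 3.85%) and X (14 of 328, 4.27%). The repeat content and mappability of these stretches were not analysed here.

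The widest domain of all was chrX:49702533-49724283, with 21751 bp. Its covered length was 6601, 6026 and 5387 bp in the 17-71 control libraries, 4010 and 2649 bp in the 17-71 C220 libraries, 18880 and 5427 bp in the CLBL-1 control libraries, and 20242, 21594 and 20424 bp in the CLBL-1 C220 libraries. All CLBL-1 libraries except control replicate 3 covered most of it, and no 17-71 library covered more than 6601 bp. Next came chr34:75676-93932 (18257 bp) and chr34:41438-59650 (18213 bp), in which every library had a peak of 3000 bp or more. The latter also had the lowest mean fold enrichment of all domains, 1.58, and a core of 9239 bp, with covered lengths between 10888 bp (17-71 control replicate 2) and 15965 bp (CLBL-1 C220 replicate 4). The fourth widest, chr7:80946312-80962417 (16106 bp), was the domain split into most pieces, with a mean of 3.2 peaks per library, followed by chr34:75676-93932 with 3.1. The remaining 6 of the 10 widest, between 9754 and 10463 bp, lay near the first base of chromosomes 3, 6, 34 and 37.

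Domains that were broad in every library formed a small group. The 37 domains with a single peak of 3000 bp or more in all 10 libraries had a median width of 6129 bp and a median core of 3717 bp, and 22 of them lay within 200 kb of a first base. The widest domain with exactly 1 peak in every library was chr1:37-9063 (9027 bp). Its fold enrichment was 3.22, 2.92 and 2.84 in the 17-71 controls, 3.37 and 3.1 with C220, 3.64 and 3.17 in the CLBL-1 controls, and 3.57, 3.57 and 3.49 with C220, and the groups overlapped. Its median −log10 p was 2722, and chr1:26186-32453, chr32:38802088-38809204 and chr6:231-8229 followed with 2083, 2002 and 1935. No other domain had a median above 1000; the median over all domains was 16.2. The fold enrichment of these 4 was between 3.0 and 3.74.

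The domains were less enriched per base than narrower shared regions. The median domain had a mean fold enrichment of 3.69 and a −log10 p of 16.2, against 4.80 and 19.7 for the shared regions under 3 kb. Among the domains, log2 width and mean log2 fold enrichment ran in opposite directions (Pearson r = -0.55 across the 1055 domains, which share their libraries and are not independent replicates). The caller averages the enrichment over all bases it joins into a broad peak. The 5 domains of lowest mean all lay near chromosome starts: besides chr34:41438-59650 they were chr1:76789-83727 (1.60), chr37:85462-95435 (1.66), chr1:61692-68945 (1.67) and chr37:59890-70352 (1.67).

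The strongest domains were narrower, with 10 between 3014 and 4394 bp and mean folds of 6.19 to 7.03. The highest mean log2 fold enrichment belonged to chr7:16818332-16821531 (3200 bp, mean fold 6.90), then chr6:22621078-22624383 (3306 bp, 7.03). Next was chr4:10462305-10466698 (4394 bp, 6.65), the one among the 10 strongest that had a peak of 3000 bp or more in every library. Its fold enrichment was 6.96, 5.89 and 5.76 in the 17-71 controls, 6.90 and 6.57 with C220, 7.37 and 5.99 in the CLBL-1 controls, and 6.36, 7.26 and 7.39 with C220. The groups overlapped in these values, and its covered length stayed between 3763 and 4394 bp in all 10 libraries. With uncovered bases counted at an enrichment of 1 over the whole domain, it was called higher with C220 in 17-71 (log2 difference 0.37, limma adjusted p = 0.0432), against 0.19 over covered bases (limma adjusted p = 0.282). Peaks covered 3772, 3763 and 3768 bp of it in the 17-71 controls and 3773 and 3771 bp with C220. Libraries were centred separately for each mean. Before centring, the median whole-region mean of the shared regions under 3 kb was 4.336, 3.477 and 3.456 in the 17-71 controls. With C220 it was 3.097 and 3.217, below every control. The whole-domain difference is therefore relative to library medians that were lower with C220, and it was not tested without centring. Among the other 9, chr34:18787124-18791331 (6.86) reached its level in 1 line, as described below.

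Genes could be named for a minority of the domains. The study's table of regions, which pairs CanFam3.1 regions with Ensembl genes, was used for names alone; the part held here lists regions by the strength of their treatment effect, so its names are not a random draw. It paired 57 domains with a gene (43 with a protein-coding gene, 11 with a lincRNA), 33 of them with a symbol, and 28 of the 57 overlapped the gene's start. These 28 had a median width of 4256.5 bp, a median core of 984.5 bp and a median fold enrichment of 3.47. None of the 33 symbols belonged to the 278 genes listed for B-cell identity, MYC targets, splicing, p53 and other classes, so those lists, and the B-cell markers that would check the lines' labels, could not be read from the domains.

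Domains covered the starts of genes of MHC class II, the pathway by which B cells present peptides: DLA-DRA (chr12:2130793-2133835, 3043 bp), DLA-DQA1 (chr12:2220508-2224248, 3741 bp) and DLA-DMB (chr12:2507825-2511255, 3431 bp). At DLA-DRA the fold enrichment was 3.32, 3.37 and 3.55 in the 17-71 controls, 4.15 and 3.1 with C220, 3.43 and 3.17 in the CLBL-1 controls, and 2.79, 2.74 and 2.78 with C220. At DLA-DMB the 10 libraries lay between 3.11 and 4.07, and the groups overlapped. Others covered the starts of CD69 (chr27:36196160-36199499, 3340 bp), an early activation antigen, CD48 (chr38:21610750-21615331, 4582 bp), an adhesion receptor of the SLAM family, and TAGAP (chr1:48389320-48392946, 3627 bp), a GTPase-activating protein of lymphocytes. CD48 had a fold enrichment between 2.44 and 3.32 and a peak of 3000 bp or more in 8 libraries; at CD69 it lay between 2.83 and 4.35 and at TAGAP between 3.1 and 4.80. Inside gene bodies lay domains of ARID1B, a subunit of the SWI/SNF remodelling complex (chr1:46372949-46375952, 3004 bp), and SIN3B, a corepressor scaffold (chr20:45783276-45786339, 3064 bp). Upstream of IRF2BP2, a transcriptional corepressor, chr4:5240597-5243827 held between 3.32 and 3.67-fold enrichment in all 10 libraries.

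The domain nearest MYC, a transcription factor gene whose accessibility and expression the study followed up, was chr13:25197988-25202027 (4040 bp, core 1710 bp). It ended 2753 bp before the region that the study's table pairs with the 3′ end of MYC, on the upstream side; where the start of MYC lies relative to the domain was not analysed here. Its fold enrichment was 3.04, 3.21 and 3.41 in the 17-71 controls, 3.0 and 2.84 with C220, 3.1 and 2.81 in the CLBL-1 controls, and 2.78, 2.72 and 3.17 with C220. Every contrast missed the threshold there, with log2 differences of -0.07 for C220 in 17-71 (limma adjusted p = 0.774) and 0.25 between the control lines (limma adjusted p = 0.126).

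The libraries differed in how much of a domain they covered. The median covered length per domain was 2689, 2556 and 2793 bp in the 17-71 controls, 1359 and 2068 bp in the 17-71 C220 libraries, 2180 and 2270 bp in the CLBL-1 controls, and 2226, 2183 and 2184 bp in the CLBL-1 C220 libraries. The 17-71 controls covered most and both 17-71 C220 libraries less than any other library, while all CLBL-1 libraries lay between 2180 and 2270 bp. As group means this was 2679 ± 119 bp (SD, n = 3) and 1714 ± 501 bp (SD, n = 2) in 17-71, and 2225 ± 63.6 bp (SD, n = 2) and 2198 ± 24.5 bp (SD, n = 3) in CLBL-1. The 17-71 controls also held more peaks, with 44378, 33358 and 30943 peaks in the controls and 22076 and 27646 with C220. In CLBL-1 there were 23822 and 23318 peaks in the controls and 27026, 27247 and 23082 with C220. Sequencing depth is unknown from these lists, and its part in the covered length was not tested.

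**Figure D2:**
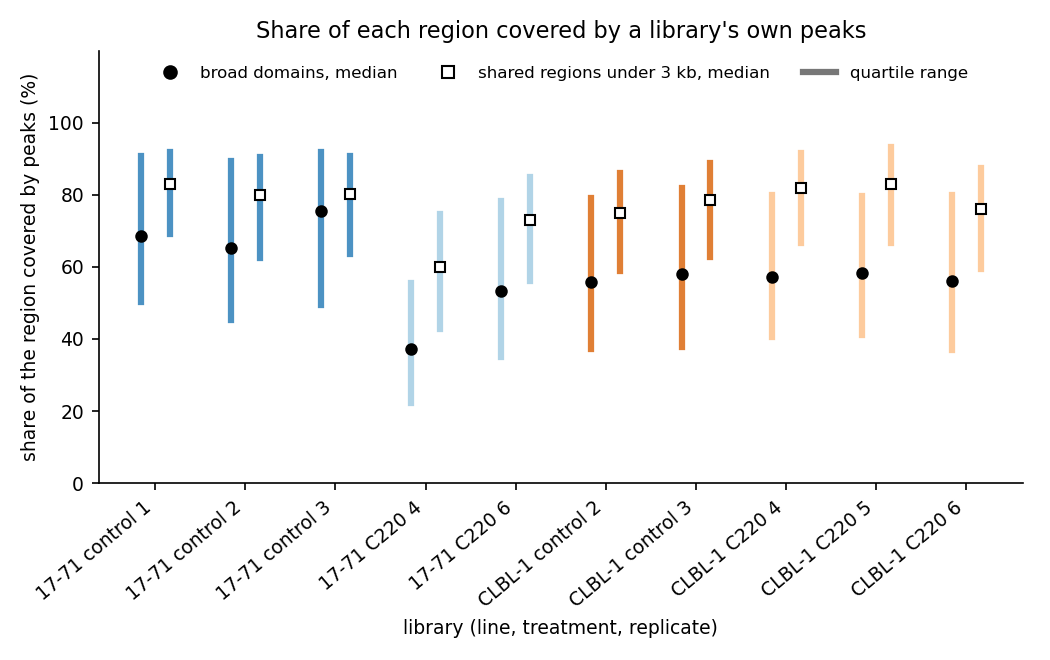
Share of a region covered by a library's own peaks (y axis, %) in each of the 10 libraries (x axis, coloured by line and treatment); bars span the quartiles over regions, filled circles are medians of the 1055 broad domains and open squares medians of the 8124 shared regions under 3 kb. The domain median runs from 37.1% in 17-71 C220 replicate 4 to 75.4% in 17-71 control replicate 3, and is below that of the narrower regions in every library.

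Single long peaks were counted as a description only, since any peak of 3000 bp makes a shared region wide enough to be a domain. A peak of 3000 bp or more lay in 354, 338 and 410 domains in the 17-71 controls but in 95 and 207 with C220. In CLBL-1 it was 233 and 259 in the controls and 256, 249 and 240 with C220. In the narrower shared regions the median covered length was 1179, 1125 and 1139 bp in the 17-71 controls and 843 and 1032 bp with C220, so the shortening was not limited to the domains. The mean covered length with C220 over that of the controls in 17-71 had a median of 0.727 over the domains and 0.859 over the shared regions under 3 kb. Domains were chosen for width, and the longest peak lay in a 17-71 control in 230, 144 and 222 of them. It lay in a 17-71 C220 library in 12 and 33. These ratios therefore describe the members as chosen and cannot show a stronger shortening in the domains.

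The control libraries of the lines were compared to ask where the lymphomas differed. In 17-71 against CLBL-1, 375 of the 1055 domains (35.5%) differed in mean fold enrichment over covered bases (limma, Benjamini-Hochberg adjusted p under 0.05), 144 higher and 231 lower in 17-71. Over all 9179 shared regions the same rule called 2476, or 27%. The excess of lower calls rested on 1 library: without 17-71 control replicate 1, 189 domains were higher and 191 lower, and the median log2 difference over the domains went from -0.04 to 0.001. The median log2 difference was -0.04 over the domains and -0.02 over all shared regions, with a median standard error of 0.11 per domain, and 14 of the called domains differed by 2-fold or more. The median log2 SD between replicates of the domains was 0.11 in the 17-71 controls and 0.07 in the CLBL-1 controls. Where each base without a peak was counted at an enrichment of 1 over the whole domain, 180 domains (17.06%) were called, 118 higher and 62 lower in 17-71, against 28.8% of all shared regions. By the largest −log10 p in the domain 518 (49.1%) were called, 277 higher and 241 lower, against 53.7%. Without scaling of libraries 337 (31.94%) were called, 66 higher and 271 lower, against 18.1%. The share of domains called was thus above that of all shared regions by the mean over covered bases, scaled or not, and below it by the whole-domain mean and by the largest −log10 p. Domains were chosen for width, and fold enrichment over covered bases ran against covered length between the lines (r = -0.71, described below). These shares are therefore a description and cannot show that domains differed more, or less, than other shared regions.

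In many of the called domains, 1 line had a short, high peak where the other had a long, low one. The largest difference lay at chr34:18787124-18791331 (4208 bp). Fold enrichment there was 2.87, 2.95 and 2.66 in the 17-71 controls, 4.55 and 3.45 with C220, 10.9 and 10.1 in the CLBL-1 controls, and 10.7, 10.1 and 10.2 with C220. Peaks covered 4207, 3957 and 4144 bp in the 17-71 controls, 2019 and 2422 bp with C220, and 523 and 578 bp in the CLBL-1 controls. No 17-71 library overlapped any CLBL-1 library in either value. The log2 difference between the control lines was -1.76 (SE 0.11, limma adjusted p = 2.44e-06), whereas over the whole domain it was 0.38 (limma adjusted p = 0.0545).

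The domain over the start of CYB5A, which encodes the electron carrier cytochrome b5 (chr1:5067823-5072593, 4771 bp), had the same form. Its fold enrichment was 2.93, 2.56 and 2.59 in the 17-71 controls, 3.36 and 2.51 with C220, 7.94 and 7.26 in the CLBL-1 controls, and 7.10, 6.36 and 7.06 with C220. Peaks covered 4473, 4771 and 4756 bp in the 17-71 controls but 1069 and 965 bp in the CLBL-1 controls. The line groups did not overlap, and the log2 difference was -1.36 (SE 0.11, limma adjusted p = 8.71e-06). Over the whole domain it was 0.21 (limma adjusted p = 0.217).

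A further 3 domains completed the 5 of smallest p that were lower in 17-71: chr2:64628214-64633246, chr6:9367048-9370455 and chr8:3325380-3329391, with log2 differences of -1.19, -1.18 and -1.13. At chr6:9367048-9370455, which had no base covered in all libraries, the 17-71 controls stood at 2.42, 2.43 and 2.21 and the CLBL-1 controls at 5.81 and 5.90. There the whole-domain difference kept its sign (-0.23, limma adjusted p = 0.294).

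The opposite form, long and low in CLBL-1, held for the 5 domains of smallest p that were higher in 17-71. At chr28:3951350-3955611 (4262 bp) fold enrichment was 5.87, 5.74 and 6.09 in the 17-71 controls, 4.42 and 5.30 with C220, 2.94 and 2.59 in the CLBL-1 controls, and 2.83, 2.80 and 2.83 with C220. Covered length was 1094, 1099 and 1005 bp in the 17-71 controls and 4101 and 4219 bp in the CLBL-1 controls. The lines did not overlap (log2 difference 1.23, SE 0.13, limma adjusted p = 3.60e-05). The others were chr18:52060335-52063858 (0.98), chr15:49371617-49374753 (0.97), chr9:48604502-48608210 (0.88) and chr1:105566767-105570229 (0.79). In all 5 the whole-domain difference had the opposite sign, between -0.42 and -0.06.

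**Figure D3:**
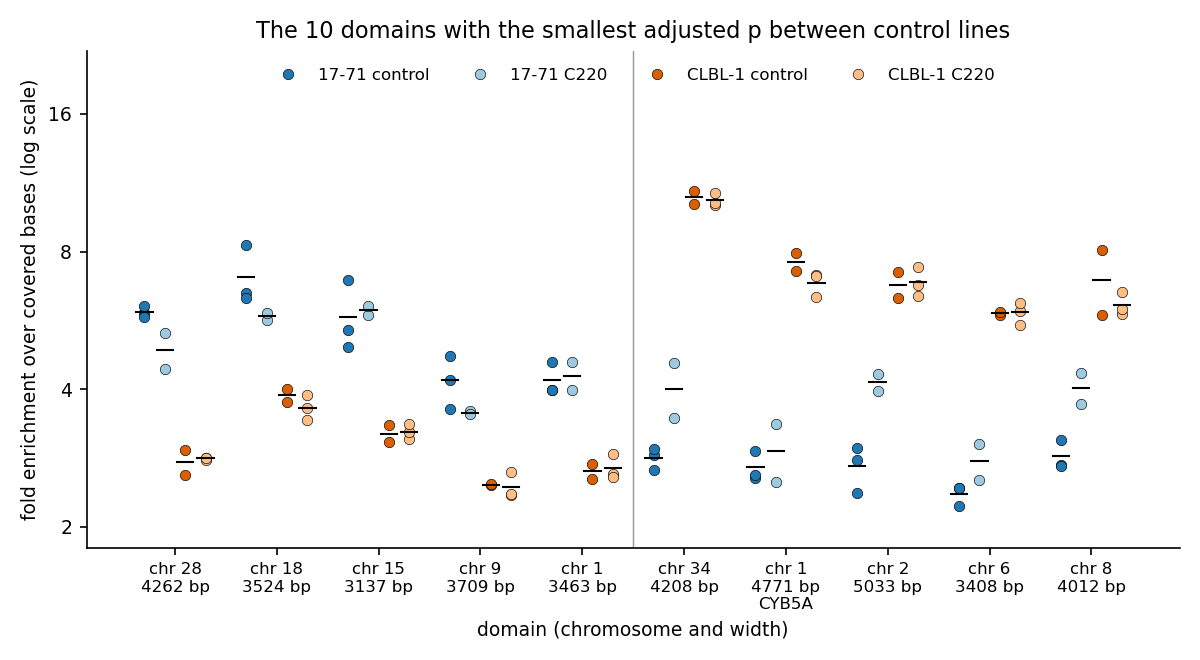
Fold enrichment over covered bases (y axis, log scale) in every library of the 10 domains with the smallest adjusted p between the control lines, 5 higher in 17-71 (left) and 5 lower (right); points are libraries coloured by line and treatment, short bars are group means. In each domain all 17-71 libraries lie on 1 side of all CLBL-1 libraries.

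Across the domains, breadth and height moved against each other between the lines. Domains were chosen for width, and the longest peak lay in a 17-71 control in 230, 144 and 222 of them. It lay in a CLBL-1 control in 59 and 93. The shares by covered length below are therefore a description and cannot show a difference from all shared regions. In 187 domains (17.73%) every 17-71 control covered more bases than every CLBL-1 control and at least 2 times as many on average, against 5.73% of all shared regions; 165 of the 187 had a lower fold enrichment in 17-71. The reverse held for 72 domains (6.82%; 2.88% of all shared regions), of which 69 had a higher fold enrichment in 17-71. Over all 5 libraries of each line, with no limit on the size, the order turned: 121 domains (11.5%) were covered over more bases in every 17-71 library (7.51% of all shared regions) and 157 (14.9%) in every CLBL-1 library (13.6% of all shared regions). The log2 ratio of covered length and the log2 difference of fold enrichment correlated at r = -0.71 across the domains; both come from the same peaks, and how far the averaging over long peaks sets this value was not tested. Of the 375 called domains, 24 were called in the same direction by the mean over the whole domain (11 higher and 13 lower in 17-71) and 54 in the opposite direction.

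**Figure D4:**
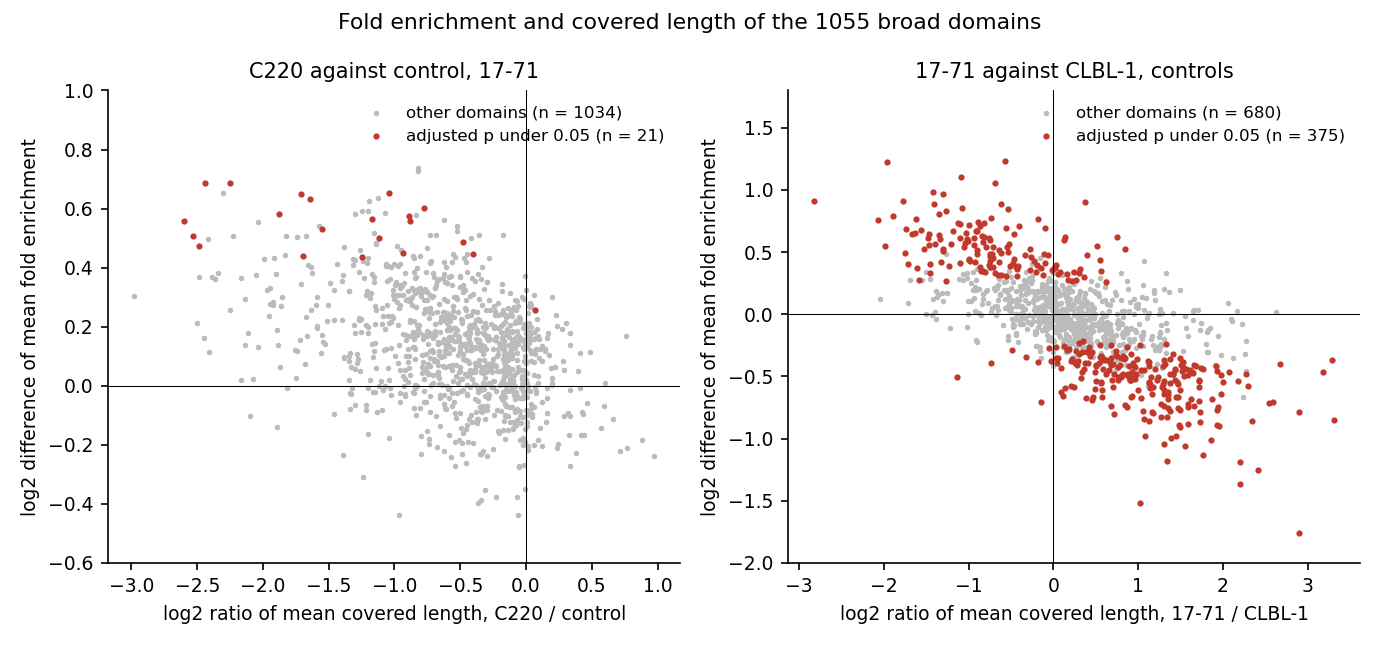
Log2 difference of mean fold enrichment (y axis) against the log2 ratio of mean covered length (x axis) for the 1055 broad domains, for C220 against control in 17-71 (left) and for 17-71 against CLBL-1 controls (right); each point is a domain and red points passed an adjusted p of 0.05. Both clouds slope downwards (r = -0.42 on the left, -0.71 on the right), and 18 of the 21 red points on the left had a shorter covered length in both C220 libraries than in every control.

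The 24 domains called alike by both means were singled out after their values were seen, so their shared direction is fixed by that choice. The largest difference among them was at chr7:38854698-38858203 (3506 bp), at 7.79, 6.45 and 6.95 in the 17-71 controls, 5.29 and 8.98 with C220, 3.66 and 2.95 in the CLBL-1 controls, and 3.19, 3.16 and 4.27 with C220. The lines did not overlap (log2 difference 1.23, SE 0.19, limma adjusted p = 0.000536; over the whole domain 0.66, limma adjusted p = 0.0499). At chr26:1025288-1028388 (3101 bp) the 17-71 controls stood at 6.88, 5.16 and 5.10 and the CLBL-1 controls at 3.37 and 3.26, with covered lengths of 1074, 1039 and 1074 bp and 778 and 863 bp. In the other direction, chr10:40995816-40999094 (3279 bp) stood at 2.19, 2.15 and 1.99 in the 17-71 controls and 3.59 and 3.94 in the CLBL-1 controls, with covered lengths of 2758, 2646 and 2758 bp and 2874 and 3165 bp. Of these 24, chr17:60219199-60222637 (3439 bp) was broad in every library. It covered between 3136 and 3439 bp throughout, at 3.35, 3.23 and 3.05 in the 17-71 controls and 4.41 and 4.57 in the CLBL-1 controls (log2 difference -0.35, limma adjusted p = 0.022).

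Among the 57 domains paired with a gene, 18 (31.6%) were called, 9 higher and 9 lower in 17-71, against 35.5% of all domains and 27% of all shared regions. STAP1, which encodes an adaptor protein of B-cell receptor signalling (chr13:58099001-58103501, 4501 bp), was higher: 4.97, 5.55 and 4.69 in the 17-71 controls, 3.36 and 3.78 with C220, 2.80 and 3.23 in the CLBL-1 controls, and 2.72, 2.65 and 3.84 with C220. The control groups did not overlap (log2 difference 0.88, SE 0.16, limma adjusted p = 0.00147), and the whole-domain difference was 0.29 (limma adjusted p = 0.208). Among those lower in 17-71 were, besides CYB5A, the domains over the starts of DLA-DQA1 (-0.42), STX7, an endosomal syntaxin (-0.48), KLHDC9 (-0.48) and C7H1orf43 (-0.54). Over the whole domain the difference turned positive at all 4: it was 0.56 at DLA-DQA1 and passed the threshold in that direction (limma adjusted p = 0.00671), and was 0.10, 0.38 and 0.30 at STX7, KLHDC9 and C7H1orf43, where the call was lost (limma adjusted p = 0.69, 0.0911 and 0.258).

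The share called between the lines was also counted in subsets of the domains, without a test between subsets, and stands beside 35.5% of all domains and 27% of all shared regions. Of the 70 within 200 kb of a first base, 18 (25.7%) were called between the control lines, all 18 lower in 17-71. Of the 37 domains that were broad in every library, 7 (18.9%) were called, 2 higher and 5 lower. Of the 276 in which no library had a peak of 3000 bp, 85 (30.8%) were called.

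C220 was compared with control within 17-71 to ask where accessibility moved after 4 days of PRMT5 inhibition. Here 21 domains (1.99%) rose in mean fold enrichment over covered bases and 0 fell (limma adjusted p under 0.05; 316 domains, or 29.95%, had an unadjusted p under 0.05, against 20.7% of all shared regions). Over all 9179 shared regions 0.828% were called, 0.61% higher and 0.218% lower. The 21 rises lay between 0.26 and 0.69 on the log2 scale. The median log2 difference was 0.13 over the domains, with 807 above 0, and 0.03 over all shared regions. Domains were chosen for width, and across them the log2 difference and the log2 ratio of covered length correlated at r = -0.42. The longest peak lay in a 17-71 control in 230, 144 and 222 domains, and in a 17-71 C220 library in 12 and 33. The shares and median of the domains are therefore a description and cannot show a stronger rise than in all shared regions. The median log2 difference also depended on the processing. With the whole-domain mean, each library again centred on its median, it was 0.016 over the domains (548 above 0) and 0.027 over all shared regions. Before centring, the median whole-domain mean of the domains was 2.71, 2.38 and 2.49 in the 17-71 controls, and 1.99 and 2.18 with C220. That mean was not tested without scaling. For the mean over covered bases, quantile normalization gave medians of 0.049 (659 above 0) and 0.002, and no scaling gave 0.063 (664 above 0) and -0.034. All 21 calls were lost when 17-71 control replicate 3 or 17-71 C220 replicate 4 was left out, and without C220 replicate 6 a total of 132 domains (12.51%) were called, 124 higher and 8 lower, against 7.63% of all shared regions. They were also lost with no scaling of libraries and with only the 5 libraries of the line in the fit. With the whole-domain mean, 3 domains rose and 8 fell (1.04%, against 1.22% of all shared regions). By that mean 7 of the 21 stayed above 0, with a median log2 difference of -0.15 over the 21, and 0 were called as higher.

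The rises came where peaks were shorter. In 18 of the 21 called domains both C220 libraries covered fewer bases than any control, as they did in 527 of the 1055 domains (49.95%) and in 43.8% of all shared regions. The covered length with C220 over that of the controls had a median of 0.422 in the 21 domains. At chr2:64628214-64633246 (5033 bp), fold enrichment was 2.97, 2.80 and 2.37 in the controls and 4.32 and 3.96 with C220, with no overlap, against 7.21 and 6.33 in the CLBL-1 controls. Covered length fell from 3012, 4279 and 4362 bp to 691 and 742 bp. The log2 difference was 0.69 (SE 0.10, limma adjusted p = 0.0167), and over the whole domain -0.42 (limma adjusted p = 0.214).

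A further 4 domains followed by p. At chr12:432053-435580 (3528 bp) fold enrichment was 4.33, 4.05 and 3.50 in the controls and 6.56 and 5.32 with C220. At chr12:12404405-12407726 (3322 bp) it was 4.11, 3.81 and 3.67 against 6.39 and 5.10, while covered length went from 3026, 3225 and 3096 bp to 966 and 1028 bp. The remaining 2, chr9:34607756-34612040 (log2 difference 0.60) and chr18:17484291-17487546 (0.65), had no overlap between the groups either. In these 4 the CLBL-1 C220 libraries differed from their controls by -0.01 to 0.21 on the log2 scale, and none of them passed the threshold there.

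DLA-DQA1, the alpha chain of an MHC class II molecule, was the one domain with a gene name among the 21. It stood at 3.1, 2.85 and 2.74 in the 17-71 controls, 4.28 and 3.42 with C220, 4.37 and 4.09 in the CLBL-1 controls, and 4.19, 3.79 and 4.07 with C220. Both C220 libraries lay above the 17-71 controls (log2 difference 0.47, SE 0.10, limma adjusted p = 0.0442). At the same time its peaks shrank from 3252, 3226 and 3387 bp to 403 and 773 bp, and the whole-domain mean was called in the other direction (-0.65, limma adjusted p = 0.0462).

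In the main fit of the mean over covered bases, to all 10 libraries, no domain fell past the threshold in 17-71. With quantile normalization of the same mean 1 fell. By other measures 8 fell by the whole-domain mean, 5 by the largest −log10 p and 1 by the largest fold enrichment. By the covered-base mean the 3 of smallest p below 0 were chr10:8688647-8692098 (-0.40, limma adjusted p = 0.083), chr28:21742665-21746254 (-0.38, limma adjusted p = 0.096) and chr11:6338440-6341790 (-0.31, limma adjusted p = 0.112), the last inside a gene with no symbol.

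In CLBL-1, 0 domains were called with C220 by limma, 47 (4.45%) had an unadjusted p under 0.05, against 4.04% of all shared regions, and 0% of all shared regions were called. The median log2 difference was 0.001 over the domains, with 529 of 1055 above 0 and quartiles of -0.06 and 0.06. The smallest p above 0 belonged to chr3:61034190-61037945 (0.42), chr21:25658600-25661902 (0.35) and chr1:87509854-87512876 (0.30). Below 0 it belonged to chr33:31171400-31175172 (-0.42), chr18:37197814-37202049 (-0.46) and chr18:52849740-52852815 (-0.45). The smallest adjusted p of any domain was 0.561.

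The effect of C220 in 17-71 minus that in CLBL-1 was tested directly. As within 17-71, the domains were chosen for width, so their share beside that of all shared regions is a description. Of the domains, 0 passed in limma (smallest adjusted p = 0.0931, 191 or 18.1% with an unadjusted p under 0.05, against 12.3% of all shared regions), while 0.0436% of all shared regions passed. The 21 rises seen in 17-71 were therefore not shown to differ from CLBL-1, although this count depended on the libraries and peaks used: 20 domains passed without 17-71 C220 replicate 6 and 3 with peaks of −log10 p of 10 or more. The nearest were chr26:23561018-23564533, with log2 differences of 0.69 in 17-71 and -0.29 in CLBL-1, chr33:31171400-31175172 with 0.31 and -0.42, and chr20:8764661-8768031 with 0.50 and -0.24. In the other direction lay chr25:10183445-10187401, over the start of a gene with no symbol, with -0.20 and 0.29, chr3:61034190-61037945 with -0.03 and 0.42, and chr10:8688647-8692098 with -0.40 and 0.03.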

How the data were processed

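ATAC-seq libraries were made from nuclei of 17-71 and CLBL-1 cells. Per the labels and the study's methods, the authors aligned reads to CanFam3.1 with Bowtie2 2.2.4 and ran MACS2 in broad mode on every library separately, with no input control named. For duplicate handling and the MACS2 version, none of the sources used here gives a statement. The deposited peak lists give a fold enrichment (a ratio to local background), the −log10 of a p-value and the −log10 of a q-value for each peak. They hold no read counts, so depth is unknown and no interval for counting error can be given.

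Peaks were merged with Python 3.11.15 and pandas 2.3.3 where they touched or overlapped; bedtools 2.31.1 gave the same 59420 regions. For each region and library the length-weighted mean fold enrichment over covered bases was put on the log2 scale without a pseudocount, and each library was centred on its median over the 9179 shared regions. limma 3.58.1 (R 4.3.3, empirical Bayes with trend) was fitted to all 10 libraries with 4 group means, and p-values were adjusted by Benjamini-Hochberg over the 9179 regions. In simulated data for C220 against control in 17-71, 192 of 200 planted log2 differences of 1 among 9179 regions were recovered, with 13 false calls. The largest log2 difference of any domain in that contrast was 0.74, so recovery at the sizes seen was not tested. The simulated noise was independent between regions and libraries.

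Domains were named by rule: the 10 widest, the 10 strongest and 5 weakest, those next to the width limit, the most and least split, up to 5 per direction and contrast (3 where none passed), and the one nearest MYC within 100 kb. Domains with gene names and those called by both averages were added after values were seen. The members, lists and tests were chosen with earlier results of these data known. The study's own fold changes and p-values were not used. No CanFam3.1 genome or annotation was used here, so gene lists were matched only to the symbols from the study's table. Sequence motifs were not analysed. Coordinates are 1-based. One domain paired with a gene is not reported here. Alternatives are given in the closing section.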

Additional observations from a re-analysis of the deposited data

How the results depend on the processing

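The number of domains was 3253 with a width limit of 2000 bp, 329 with 4000 bp, 339 with peaks of −log10 p of 10 or more, and, by limits chosen after seeing the data, 32 with 3000 bases covered in all libraries and 37 with a peak of 3000 bp in each library; leaving out each library gave 959 to 1203. For C220 in 17-71 the 21 called domains became 62 with the largest −log10 p (2.45% of all shared regions were called), 11 with the whole-region mean (1.22%), 12 with quantile normalization (0.61%), 40 with 500 bp of overlap (2.07%), and 0 with no scaling or with only the 5 libraries compared (0 to 132 leaving out each library). For the difference between the lines in the C220 effect, 3 domains were called with peaks of −log10 p of 10 or more, against 0.225% of all regions (0 to 20 leaving out each library, 20 without 17-71 C220 replicate 6, against 1.13%). Between the control lines the 375 became 180 with the whole-region mean (28.8% of all regions) and 134, of 339 domains, with the stricter peaks (23.0%; 231 to 389 leaving out each library, lowest without CLBL-1 control replicate 2); where 1 library was left in a group, it was assumed to vary like the other groups. No scaling moved the median of all shared regions between the control lines from -0.02 to -0.15. Away from chromosome starts, 357 of 985 domains were called between the lines (an alternative added later). C220 in CLBL-1 gave 0 called domains in every alternative run. The cause of these changes was not tested, except that fewer domains were tested with stricter peaks.

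With the stricter peaks the median covered length per domain was 2826 bp as a mean of the 17-71 controls, and 1370 and 2023 bp in the 17-71 C220 libraries. With the 20000 peaks of largest −log10 p it was 1424 and 2107 bp in the 17-71 C220 libraries, below 2558, 2647.5 and 2819 bp in the controls, and as group means 2313 bp in the CLBL-1 controls and 2260 bp in CLBL-1 with C220. With the whole-region mean the log2 difference reversed at chr2:64628214-64633246 (-0.42), chr12:12404405-12407726 (-0.36) and chr18:17484291-17487546 (-0.29) for C220 in 17-71. Between the control lines it reversed at chr28:3951350-3955611 (-0.22), chr18:52060335-52063858 (-0.14, and -0.11 with the largest −log10 p), chr15:49371617-49374753 (-0.064), chr9:48604502-48608210 (-0.10), chr1:105566767-105570229 (-0.42), chr34:18787124-18791331 (0.38), chr1:5067823-5072593 (0.21), chr2:64628214-64633246 (0.29) and chr8:3325380-3329391 (0.23). The same-numbered libraries of the lines did not deviate together (r from -0.09 to 0.07), so the numbers were not taken as pairs; with the replicate block, 360 domains were called between the control lines (168 higher, 192 lower in 17-71) and 0 for the difference in the C220 effect.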
